A study of Rattus norvegicus with 156 samples.

Results

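Signals of 8 genes of the neuronal cytoskeleton were followed through the nervous system of rats with ligated spinal nerves. The genes were Nefl, Nefm and Nefh, which encode the light, medium and heavy neurofilament chains, Ina (internexin alpha), Prph (peripherin), the beta tubulin genes Tubb2b and Tubb3, and Mapt (tau). All 16 probe sets annotated to these symbols were taken, of 26379 on the 3 arrays, and the genes were 8 of 10969 named ones. Where a gene had several probe sets they are numbered from the brightest, so Nefl 1 is the brighter of the 2 for Nefl. Tubb2b 3 had low signals throughout, never passed the filter on low signals and was not tested, so 15 probe sets entered the tests. Several probe sets carry a mark for matching more than 1 transcript (Nefl 2, Ina 1, Prph 2, Tubb2b 1, Mapt 1 and Mapt 3) or for incomplete sequence identity (Tubb2b 2 and Tubb2b 3). Signal of close beta tubulin relatives on the Tubb2b probe sets therefore cannot be told apart from Tubb2b.

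Neurofilaments are intermediate filaments that fill large axons, and their amount helps to set axon calibre. The light chain forms the core polymer, the medium and heavy chains carry long side arms that are heavily phosphorylated in axons, and internexin alpha joins them mainly in the central nervous system. Peripherin is an intermediate filament of peripheral neurons, abundant in small sensory neurons. Microtubules are polymers of alpha and beta tubulin on which motor proteins carry cargo, Tubb2b and Tubb3 are beta tubulins of neurons, and tau binds and stabilises microtubules in axons. Most RNA of these genes lies in the cell body, and the proteins are then moved slowly down the axon, so a ganglion holds the cell bodies and a nerve holds mostly axons, Schwann cells and connective tissue.

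In the SNL rats the L5 and L6 spinal nerves were tied, and sham rats had these nerves exposed only. The SNL group received saline vehicle, the SNL+GPN group received gabapentin, a drug against neuropathic pain, at 100 mg/kg once a day for 7 days, the Naive group had no surgery and received vehicle, the Naive+GPN group had no surgery and received the drug, and the Sham group received vehicle. Tissue was taken 19 to 21 days after surgery, and ligated rats had been selected for a lowered paw withdrawal threshold. Each value comes from 1 pool of 4 to 6 rats per treatment and compartment, 52 pools in 11 compartments: dorsal root ganglia (DRG) of L4, L5 and L6, mid-thigh sciatic nerve and spinal cord, each on the side of the ligation (ipsi) and the other (contra), and brain. The labels state no strain, sex or age. Because a treatment had a single pool per compartment, ligated pools (SNL and SNL+GPN) were set against unligated pools (Naive, Naive+GPN and Sham), 2 against 3. The unligated groups thus mix untreated, drug-treated and sham-operated rats, and p-values measure the spread between pools that differ in drug and surgery, and the number of arrays limits the precision.

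Array medians of the deposited signal spanned 13 to 62.2 on array A, 8.1 to 47.2 on B and 14.5 to 53.3 on C. Levels across tissues are therefore given as multiples of the median of their own array. Values within a compartment are quantile-normalized signals, in which arrays share 1 distribution, so probe sets of equal rank show equal values. Changes are log2 changes of signal plus a pseudocount with the standard error (SE) of the limma fit, and a result passed at a Benjamini-Hochberg adjusted p below 0.05 over all probe sets of the comparison. In bulk tissue, fewer cells of a type and less RNA per cell cannot be told apart.

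The neurofilament genes had their highest levels in sensory ganglia, lower ones in cord and brain, and very low ones in nerve. In the 16 unligated ganglion pools Nefl 1 lay between 82.2 and 280 times the array median (median 166), against 1.20 to 3.39 in 6 nerve pools, 42.2 to 94.7 in 6 cord pools and 19.6 to 24.6 in 3 brain pools. Nefm lay between 90.8 and 215 times in ganglia, 0.729 and 2.14 in nerve, 53.7 and 94.1 in cord, and 15.5 and 19.4 in brain. For both genes the highest cord pool reached above the lowest ganglion pool, while brain and nerve were separate from all the others. Nefh 1 showed no such overlap, with 73.4 to 196 times in ganglia, 38.1 to 65.7 in cord, 7.29 to 10.1 in brain and at most 0.694 in nerve.

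Prph also stood highest in ganglia, at 57.2 to 135 times the median for Prph 1. It stood at 6.07 to 11.2 times in cord, and brain (0.975 to 1.34) and nerve (0.931 to 1.74) overlapped. Tubb3 had 53.5 to 104 times in ganglia, 12.4 to 20.8 in cord, 11.2 to 11.9 in brain and 0.837 to 1.75 in nerve. Tubb2b 1 was at 42.8 to 138 times in ganglia, with overlapping cord (19.7 to 26.4) and brain (16.2 to 21.7). It kept 5.90 to 12.0 times the median in nerve.

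Ina ran the other way, as a gene of central neurons. Ina 1 stood at 3.28 to 9.93 times the median in ganglia, against 8.41 to 16.8 in cord and 8.58 to 16.8 in brain, and at most 0.235 in nerve. Mapt did not separate ganglia from the central tissues: Mapt 1 spanned 26.0 to 54.0 times in ganglia, 25.8 to 42.5 in cord and 33.2 to 51.3 in brain, and 1.52 to 3.62 in nerve. With all arrays of a set normalized together, 15 of the 16 probe sets kept the same highest tissue, and the exception was Mapt 2. For the brightest probe set of each gene, the highest unligated ganglion value lay in L4 DRG contra. The Sham pool there had a 3' to 5' ratio of GAPDH of 3.17, against at most 1.49 in other unligated ganglion pools. Outside that compartment Ina 1 reached at most 6.13 in unligated ganglia, below cord and brain. The part of RNA quality was not tested.

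**Figure D1:**
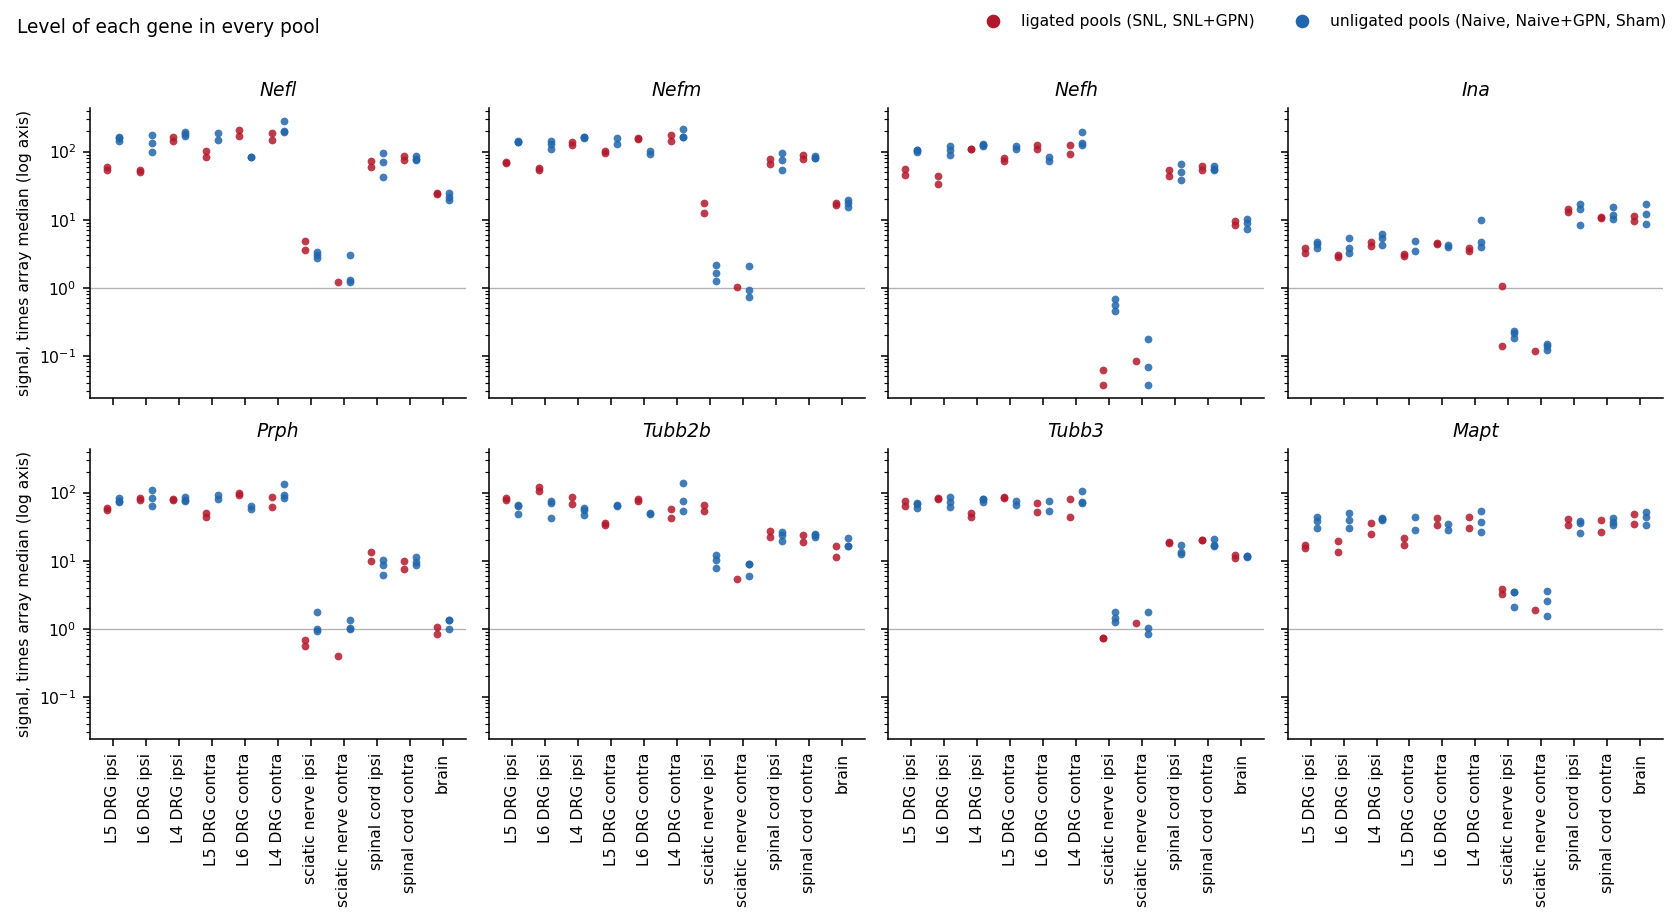
Signal of the brightest probe set of each of the 8 genes in every pool, as a multiple of its array's median on a log axis, by compartment. Red points are ligated pools and blue points unligated pools. The blue neurofilament, Prph and tubulin points are highest in ganglia and lowest in nerve (Prph is equally low in brain), whereas Ina is higher in cord and brain. The red ipsilateral nerve points of Tubb2b 1 (53.6 and 65.0) lie above its cord and brain points. Of those of Nefm, 1 (12.5) lies below its brain points and 1 (17.5) among them.

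These tissue differences were tested in the unligated pools, 3 against 3. Of 15 probe sets tested, 15 were higher in L5 DRG ipsi than in sciatic nerve ipsi, where 18.6% of all probe sets were higher. The Nefh and Ina probe sets, Prph 2 and Nefl 2 passed the filter on low signals only through the ganglion pools. For those a higher call was the only likely outcome, so the full count overstates the support. Of all calls 47.6% were higher in the ganglion, and 92.5% at the deposited scaling, with 15 members again. The log2 difference was 5.79 for Nefl 1 (SE 0.15, adjusted p = 2.46e-07) and ranged over the members up to 8.44 for Nefl 2 and down to 1.91 for Mapt 3. Nefl 2 signals in unligated nerve lay below the pseudocount, so its size follows that choice (7.43 with a pseudocount of 16 and 9.41 with 1). Against spinal cord ipsi, 10 of 15 were higher in L5 DRG ipsi (13.9% of all probe sets) and 2 were lower, both of Ina (11.7% of all). Of all calls 54.3% were higher, 72.5% at the deposited and 69.4% at median scaling, with the members' counts equal. Prph 1 was higher in the ganglion by 2.92 (SE 0.11) and Nefh 2 by 1.71 (SE 0.12), while Ina 1 was lower by a log2 difference of -1.83 (SE 0.16, adjusted p = 0.000107). The 3 Mapt probe sets did not pass there. Brain was lower than spinal cord in 9 of 15 (6.57% of all were lower), the neurofilament, Prph and Tubb3 probe sets and Tubb2b 2, and no member was higher. Prph 2, at 0.330 to 0.677 times the array median in unligated brain, did not pass the filter on low signals in brain alone. It entered through the cord pools, so a lower call was its only likely outcome and is no support. Of all calls 51.3% were higher in brain, 33.9% at the deposited and 61.1% at median scaling. The Tubb3 call was lost at median scaling (-0.27, adjusted p = 0.463) and without any one of Naive, Naive+GPN and Sham (adjusted p from 0.0627 to 0.0765). Tubb2b 2 did not pass without Naive+GPN or Sham (adjusted p = 0.0793 and 0.0964), nor Nefl 2 without Sham (adjusted p = 0.0504).

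In the ipsilateral L5 ganglion, whose own nerve was tied, the transcripts of all 3 neurofilament chains fell with ligation. Of the tau probe sets only Mapt 1 fell past the threshold after quantile normalization. Tubb2b 1 and Tubb2b 2 rose past it there, but not at the deposited or median scaling (Tubb2b 2 was at -0.24 at the deposited scaling). Nefl 1 had a signal of 2017 in SNL and 2394 in SNL+GPN, against 5407 in Naive, 5032 in Naive+GPN and 5320 in Sham. Both ligated pools lay below all unligated ones, and the log2 change was -1.25 (SE 0.10, adjusted p = 0.00108). The dimmer Nefl 2 had 926 and 1103 in SNL and SNL+GPN, against 3407, 3691 and 4127 in Naive, Naive+GPN and Sham, a change of -1.88 (SE 0.12, adjusted p = 0.000812). Over the 5 probe sets of the 3 chains, 5 fell.

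Nefm, the medium chain, averaged 2763 ± 298 in ligated L5 pools (SD, n = 2) and 4876 ± 67.6 in unligated ones (n = 3). Its log2 change was -0.82 (SE 0.10, adjusted p = 0.00297). Nefh, the heavy chain, was measured by probe sets that differed in size of change. Nefh 1 had 1696 in SNL and 2206 in SNL+GPN, against 3247 to 3545 in unligated pools, a change of -0.81 (SE 0.13, adjusted p = 0.00755). Nefh 2 had 319 in SNL and 343 in SNL+GPN, against 1256 in Naive, 1202 in Naive+GPN and 1465 in Sham. Its change of -1.96 (SE 0.12, adjusted p = 0.000783) was a 3.89-fold fall, and the groups did not overlap for either probe set. The difference between probe sets of a gene was not tested.

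Prph and Ina did not pass in L5. Prph 1 had 2206 and 2264 in SNL and SNL+GPN, against 2400, 2553 and 2848 in Naive, Naive+GPN and Sham, a log2 change of -0.21 (SE 0.10, adjusted p = 0.198). Prph 2 changed by -0.31 (SE 0.09, adjusted p = 0.0577), so for both the ligated pools lay just below the others and missed the threshold. Ina 1 and Ina 2 changed by -0.09 and -0.29 (adjusted p = 0.698 and 0.225). The intermediate filaments in L5 thus gave falls past the threshold in the 3 neurofilament chains and none in the other 2 genes.

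Among the microtubule genes, Tubb2b 1 had 3202 in SNL and 3234 in SNL+GPN, against 2032 in Naive, 1754 in Naive+GPN and 2269 in Sham. The log2 change was 0.68 (SE 0.12, adjusted p = 0.0121), and both ligated pools lay above all others. Tubb2b 2 rose by 0.51 (SE 0.12, adjusted p = 0.032), but its change was -0.24 (adjusted p = 0.501) at the deposited scaling. Tubb2b 2 lies on array B, whose medians were 23 and 18.1 in the ligated L5 pools and 25.6 to 29.2 in the others. With each array scaled to its median neither Tubb2b probe set passed (0.45, adjusted p = 0.107, and 0.18, adjusted p = 0.505), and Tubb2b 1 did not pass at the deposited scaling (0.50, adjusted p = 0.069) either. Leaving out SNL or SNL+GPN also ended the Tubb2b 1 call (adjusted p = 0.0646 and 0.0506). The Tubb2b 2 call was lost without any one of SNL, SNL+GPN, Naive and Naive+GPN (adjusted p from 0.0701 to 0.17).

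Tubb3, a beta tubulin made almost only by neurons, had 2046 and 2165 in SNL and SNL+GPN, against 2273, 2124 and 2273 in Naive, Naive+GPN and Sham. The groups overlapped and the change was -0.08 (SE 0.09, adjusted p = 0.592). Mapt 1 had 684 and 612 in SNL and SNL+GPN, against 1315, 1361 and 1123 in Naive, Naive+GPN and Sham, a change of -0.96 (SE 0.12, adjusted p = 0.00377). Mapt 2 (-0.27, adjusted p = 0.13) and Mapt 3 (-0.41, adjusted p = 0.0591) did not pass, so the probe sets of tau disagreed on the call and not on the direction. In all, 6 of 15 member probe sets fell and 2 rose in L5 DRG ipsi, where 8.88% of all probe sets were lower and 6.75% higher. The members were chosen as a set falling in ganglia against nerve, so these counts partly repeat that choice and are descriptions. The higher calls were 43.2% of all calls, 15.2% with deposited values (all probe sets then had a median change of -0.24), and 24.2% at median scaling, where Mapt 2 (-0.52) and Mapt 3 (-0.65) passed as well.

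The promoters of Tubb2b, Prph and Tubb3 are shown because their calls in L5 differed (Tubb2b past the threshold, Prph and Tubb3 not; the difference between genes was not tested). RefSeq sequences of the GRCr8 build were found for 4 of the 8 genes, the other one being Ina; each runs from 250 bases before to 50 after the annotated start, on the plus strand. Capitals mark matches on either strand to TATAAA (found in 14.2% of 33469 rat promoters of that length), to CCAAT (37.5%), to GGGCGG (33.1%), to TGACG (21.2%) or to TGANTCA (7.33%).
Tubb2b: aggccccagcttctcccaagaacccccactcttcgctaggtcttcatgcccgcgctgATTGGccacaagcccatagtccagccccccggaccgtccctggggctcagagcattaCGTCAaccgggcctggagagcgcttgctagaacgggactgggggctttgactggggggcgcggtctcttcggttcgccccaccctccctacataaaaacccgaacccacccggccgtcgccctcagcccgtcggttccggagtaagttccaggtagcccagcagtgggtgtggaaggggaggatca
Prph: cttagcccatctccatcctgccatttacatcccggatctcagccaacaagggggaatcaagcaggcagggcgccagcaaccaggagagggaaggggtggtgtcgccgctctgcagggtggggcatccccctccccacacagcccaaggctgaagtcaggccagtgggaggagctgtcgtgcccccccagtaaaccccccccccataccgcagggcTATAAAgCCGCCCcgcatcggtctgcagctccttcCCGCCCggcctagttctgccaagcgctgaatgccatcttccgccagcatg
Tubb3: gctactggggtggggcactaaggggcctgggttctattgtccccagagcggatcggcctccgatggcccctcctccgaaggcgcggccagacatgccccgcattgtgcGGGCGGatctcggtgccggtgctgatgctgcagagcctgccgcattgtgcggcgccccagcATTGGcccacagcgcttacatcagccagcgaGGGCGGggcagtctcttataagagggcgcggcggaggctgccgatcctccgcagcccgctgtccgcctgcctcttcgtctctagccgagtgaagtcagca
The Tubb2b window (chr17:30952836-30953135) held CCAAT and TGACG, each once and on the minus strand. The Prph window (chr7:132097039-132097338) held TATAAA once, its first base at -35 from the start, and GGGCGG in 2 places. The Tubb3 window (chr19:68365437-68365736) held CCAAT once and GGGCGG in 2 places. None of the 3 held TGANTCA. Motif matches are letters in a window and say nothing on binding.

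In the ipsilateral L6 ganglion, the other tied level, neurofilament transcripts fell as well. Nefl 1 had 1213 in SNL and 1473 in SNL+GPN, against 3940 in Naive, 3886 in Naive+GPN and 4535 in Sham, and its log2 change was -1.62 (SE 0.15, adjusted p = 0.00171). Nefl 2 changed by -2.16 (SE 0.21, adjusted p = 0.00172). Nefm had 1342 and 1456 in SNL and SNL+GPN, against 3722, 4295 and 3811 in Naive, Naive+GPN and Sham, a change of -1.49 (SE 0.14, adjusted p = 0.00165). In each case the ligated pools lay under all unligated ones.

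Nefh 1 fell by 1.68 in L6 (SE 0.18, adjusted p = 0.00247), to 857 and 1213 in SNL and SNL+GPN, against 3045 to 3451 in the unligated pools. Nefh 2 fell by 2.10 (SE 0.26, adjusted p = 0.00409), with 171 and 246 in the ligated pools. Mapt 1 had 380 in SNL and 556 in SNL+GPN, against 1141 in Naive, 1187 in Naive+GPN and 1497 in Sham, a change of -1.45 (SE 0.21, adjusted p = 0.00684). Mapt 2 fell by 0.72 (SE 0.15, adjusted p = 0.0266), and Mapt 3 at -0.70 did not pass (adjusted p = 0.0876). Without SNL the Mapt 1 call was lost (-1.15, adjusted p = 0.059), and the Mapt 2 call was lost without SNL, SNL+GPN, Naive or Naive+GPN (adjusted p from 0.0629 to 0.181).

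Tubb2b 1 rose in L6 by 0.62 (SE 0.15, adjusted p = 0.0459), with 2901 and 3282 in SNL and SNL+GPN, against 2121, 1775 and 2136 in Naive, Naive+GPN and Sham. Tubb2b 2 rose by 0.95 (SE 0.22, adjusted p = 0.0366). These calls were also near the threshold: without any single pool the Tubb2b 1 call was lost (adjusted p from 0.0515 to 0.181), and the Tubb2b 2 call was lost without any one but Naive (adjusted p from 0.0617 to 0.21). Tubb3 changed by 0.15 (adjusted p = 0.603), Prph 1 by -0.35 (adjusted p = 0.23) and Prph 2 by -0.42 (adjusted p = 0.19), and Ina 1 and Ina 2 by -0.48 and -0.55. Altogether 7 of 15 member probe sets fell and 2 rose in L6 DRG ipsi, against 4.22% lower and 4.37% higher among all probe sets. As in L5, these counts partly repeat the choice of the members. At the deposited scaling 2 of 15 passed, Nefl 2 and Nefh 2, and 86 probe sets in all (1451 after quantile normalization), of which 27.9% were higher (50.9% after quantile normalization). That scaling shifted the median of all probe sets by -0.28. Without SNL 5 of 15 passed.

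**Figure D2:**
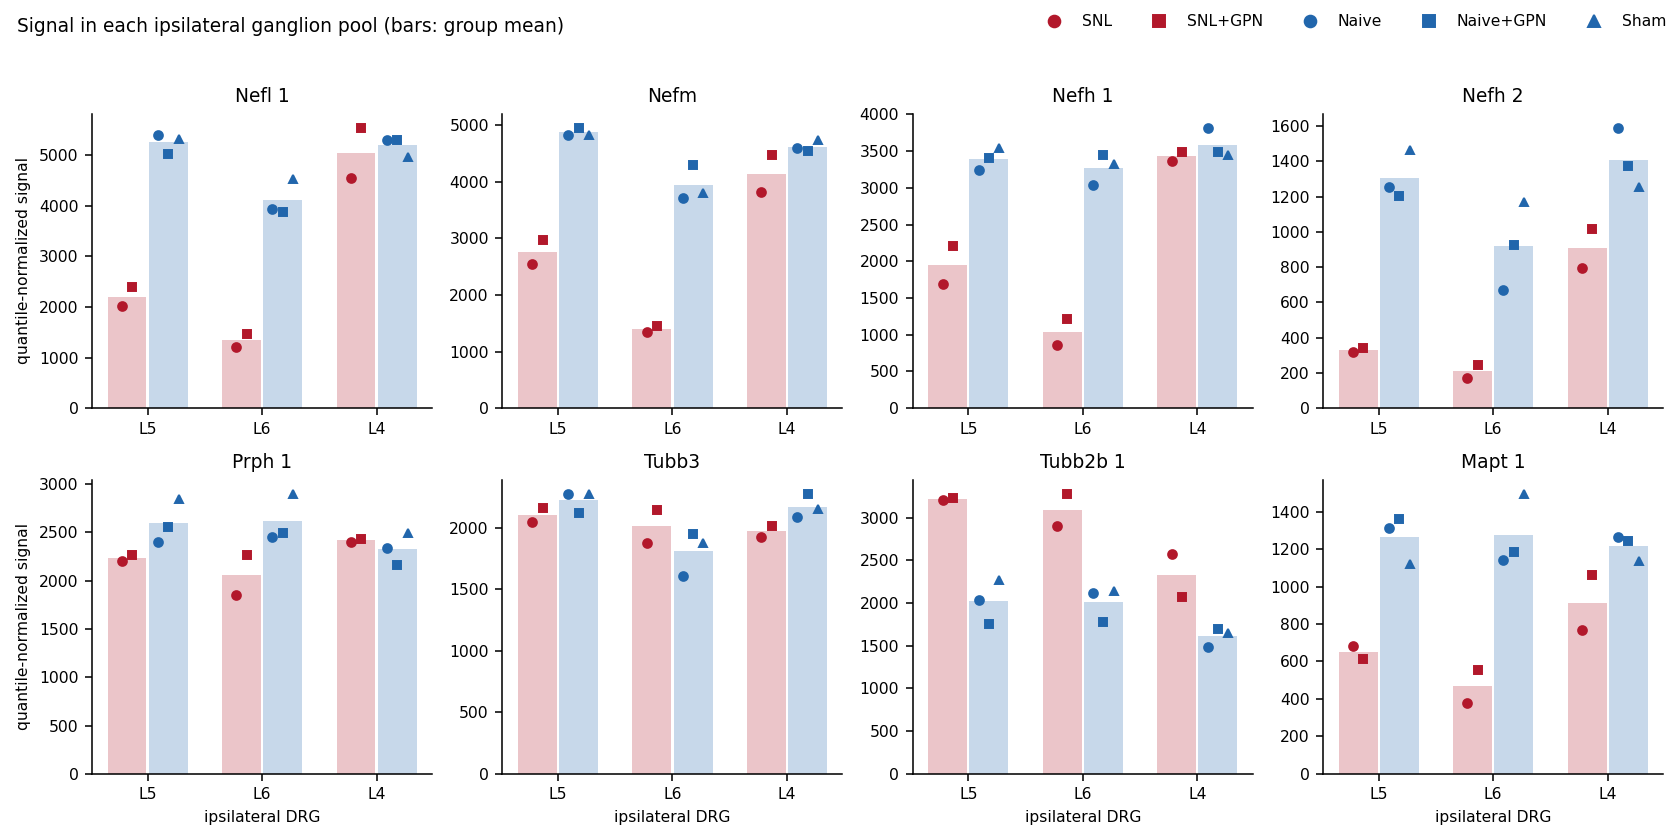
Quantile-normalized signal (linear axis from 0) of 8 member probe sets in the ipsilateral L5, L6 and L4 ganglia. Bars are group means, red for ligated and blue for unligated pools, and each point is 1 pool. For Nefl 1, Nefm, Nefh 1, Nefh 2 and Mapt 1 the red points lie below all blue ones in L5 and L6, and for Tubb2b 1 above them.

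Other cell markers moved with these changes. The summed level of 15 neuron markers, none of them a member, was 302 and 327 times the array median in SNL and SNL+GPN of L5, against 495 to 555 in unligated pools. Of the 14 neuron markers tested there, 9 fell and 1 rose (9.48% of all genes fell and 6.79% rose). In L6 10 of 15 fell and 1 rose (4.61% of all genes fell and 4.76% rose). In L5 the 8 markers of large myelinated sensory neurons summed to 57.0 and 80.0 in ligated pools, against 98.3 to 114 in the others. The summed level of 12 macrophage markers was 145 and 134 in ligated L5 pools, against 31.4 to 52.1, and 241 and 165 in ligated L6 pools, against 30.0 to 46.9. The 7 markers of satellite glia and astrocytes on the arrays summed to 32.3 and 32.7 in ligated L5 pools, against 52.7 to 54.7, and 2 of 6 tested fell. In L6 their ligated sums (39.7 and 40.4) lay within the unligated range (34.28 to 52.03), and 1 of 5 tested fell. The 3' to 5' ratio of GAPDH, a sign of RNA length, was 1.01 and 1.05 in ligated L5 pools, against 1.13 to 1.26, and 1.08 and 1.10 in ligated L6 pools, against 1.21 to 1.49. The part of these in the member changes was not tested.

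The ipsilateral L4 ganglion sends its axons through an untied nerve, and there 0 of 15 member probe sets passed (0.0418% of all did, and 4 members had an unadjusted p below 0.05, as did 14.3% of all probe sets). Nefl 1 had 4544 in SNL and 5541 in SNL+GPN, against 5308, 5308 and 4965 in Naive, Naive+GPN and Sham, with overlapping groups and a change of -0.05 (SE 0.12). Nefh 2 was an exception among the neurofilament probe sets in size, with 797 and 1019 in ligated pools, against 1254 to 1590 in unligated ones (-0.63, SE 0.15, adjusted p = 0.135). Tubb2b 1 had 2579 and 2071 in SNL and SNL+GPN, against 1488 to 1693 (0.52, SE 0.13, adjusted p = 0.144), and Tubb2b 2 changed by 0.98 (adjusted p = 0.167). At the deposited scaling Tubb2b 2 passed in L4 (1.41, adjusted p = 0.0049), where the median of all probe sets was shifted by 0.49. At median scaling Tubb3 passed there (-0.74, adjusted p = 0.0496), against -0.14 after quantile normalization.

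The L5 change was set against the L4 change by taking, for each treatment, the difference of log2 values between both ganglia. In 5 of 15 member probe sets, those of the 3 neurofilament chains, the L5 change was lower (1.87% of all probe sets). The difference was -1.21 for Nefl 1 (SE 0.12, adjusted p = 0.00649), -1.87 for Nefl 2, -0.66 for Nefm (adjusted p = 0.0257), -0.75 for Nefh 1 (adjusted p = 0.0404) and -1.33 for Nefh 2. Tubb2b 1 differed between L5 and L4 by 0.16 (SE 0.17, adjusted p = 0.634), so its change was not shown to differ between the tied and the untied level. The count was 1 without Sham, which left Nefl 2, 2 without SNL+GPN, 2 without Naive+GPN and 3 without Naive.

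Contralateral ganglia gave no member past the threshold: 0 of 15 in L4, L5 and L6, where 0%, 0.00612% and 0.0729% of all probe sets passed. At an unadjusted p below 0.05 the members counted 0, 2 and 6, against 4.01%, 8.43% and 10.6% of all probe sets. In L5 DRG contra, Nefl 1 had 4708 in SNL and 4952 in SNL+GPN, against 6364 in Naive and 5692 in Sham (-0.32, SE 0.10, adjusted p = 0.466). In L6 DRG contra it ran the other way, with 4519 and 4336 in SNL and SNL+GPN, against 3060 in Naive+GPN and 3835 in Sham (0.37, SE 0.14, adjusted p = 0.404). Nefl 2 was 2924 and 3149 in those ligated pools, against 1274 and 2060 in the unligated ones (0.90, adjusted p = 0.224), and it passed when Sham was left out (1.29, adjusted p = 0.0445). The Naive L6 and Naive+GPN L5 pools of this side were not analysed here, so the unligated L5 pools held no drug-treated rats.

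The difference between sides was tested too. In L5, 3 of 15 member probe sets were lower on the ligated side (0.444% of all), Nefl 1 (-0.97, adjusted p = 0.0451), Nefl 2 (-1.69, adjusted p = 0.0296) and Nefh 2 (-1.80, adjusted p = 0.0296). These 3 calls were lost at median scaling, with no filter and without SNL, SNL+GPN or Naive, with 0 of the probe sets passing. In L6, 6 of 15 were lower on the ligated side (1.47% of all), all 5 neurofilament probe sets and Mapt 1. There Nefl 1 differed by -2.02 (SE 0.20, adjusted p = 0.00305) and Nefh 2 by -2.74 (SE 0.26, adjusted p = 0.00286). The L6 difference includes a contralateral change in the opposite direction for Nefl 1, Nefl 2 and Nefh 2, and in the same direction for Nefm, Nefh 1 and Mapt 1. At the deposited scaling 0 of 15 passed in L6 (adjusted p from 0.295 to 1), and 3 passed at median scaling and 3 with no filter, where Nefm, Nefh 1 and Mapt 1 were lost.

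In the sciatic nerve beyond the ligation Nefm rose, unlike in the L5 and L6 ganglia, and Tubb2b 1 and Tubb2b 2 rose as well. Nefm had a signal of 379 in SNL and 269 in SNL+GPN, against 45.3 in Naive, 24.9 in Naive+GPN and 32.1 in Sham. Both ligated nerves lay far above all others, and the log2 change was 3.06 (SE 0.27, adjusted p = 0.00251), an 8.33-fold rise. Tubb2b 1 had 1368 and 1155 in SNL and SNL+GPN, against 168, 197 and 210 in Naive, Naive+GPN and Sham, a change of 2.68 (SE 0.18, adjusted p = 0.00216). Tubb2b 2 had 127 and 94.1 in the ligated pools, against 10.5, 19.5 and 14.9, a change of 2.57 (SE 0.26, adjusted p = 0.00394).

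The light chain gave unequal readings in nerve. Nefl 2 had 26.5 and 16 in SNL and SNL+GPN, against 3.9, 2.2 and 3.1 in Naive, Naive+GPN and Sham, values near the pseudocount of 5.8, with a change of 1.58 (SE 0.31, adjusted p = 0.034). That call was lost with a pseudocount of 1 (2.43, adjusted p = 0.0576) and without Naive or Naive+GPN (adjusted p = 0.0651 and 0.0752). Nefl 1 had 101 and 73.0 in SNL and SNL+GPN, against 73.8, 53.2 and 56.4, so its groups overlapped (0.47, SE 0.22, adjusted p = 0.305). Tubb3 ran lower in the ligated nerves, at 16 in both pools, against 38.4, 31.2 and 27.2 in Naive, Naive+GPN and Sham, and missed the threshold (-0.78, SE 0.21, adjusted p = 0.0894). Prph 1 had 10.9 and 13.5, against 18.6 to 33.8 (-0.70, adjusted p = 0.222). The 3 Mapt probe sets changed by 0.16 to 0.32 and did not pass.

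As a description of members chosen for ganglia against nerve, 4 of the 10 probe sets tested in nerve were higher and 0 lower. Among all probe sets 2.25% were higher and 2.62% lower. Of the member calls, that of Nefl 2 passed the filter on low signals only through the ligated pools. Nefl 2 lay at 0.805 and 1.31 times the array median there, against 0.0996 to 0.2125 in unligated pools. A higher call was thus its only likely outcome and is no support. Of all calls 46.1% were higher, and 70.6% at the deposited scaling, where the median shift was 0.33 and the members' count was again 4. Those of Nefh and Ina and Prph 2 did not pass the filter on low signals in nerve. The member calls were lost without SNL, a fit that leaves 1 ligated pool. The changes then stayed close in size, at 2.83 for Nefm and 2.57 for Tubb2b 1. The summed level of 18 skeletal muscle markers was 48.6 times the array median in SNL and 412 in SNL+GPN, against 518 to 1042 in unligated nerves. With these markers as a covariate 0 of 10 passed, though the sizes were close (Nefm 2.96, adjusted p = 0.0735, and Tubb2b 1 2.47, adjusted p = 0.0663). The GAPDH 3' to 5' ratio was 1.92 and 1.61 in SNL and SNL+GPN, against 7.38, 1.60 and 3.80 in Naive, Naive+GPN and Sham, and its part was not tested.

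Neuron markers did not rise as a list in the nerve: their summed level was 49.8 and 65.1 in ligated pools, against 75.3 to 84.1 in the others. Of 12 tested 1 rose and 1 fell (2.03% of all genes rose and 2.86% fell). Schwann cell markers summed to 618 and 608 in ligated pools, against 1084 to 1242. On the other side of the body the only ligated nerve pool, SNL+GPN, had Nefm at 26.1, against 53.0, 24.0 and 19.4 in Naive, Naive+GPN and Sham. It had Tubb2b 1 at 182, against 148, 187 and 191. Those values lie within the unligated range, but with a single ligated pool no test was made and the difference between sides was not tested.

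**Figure D3:**
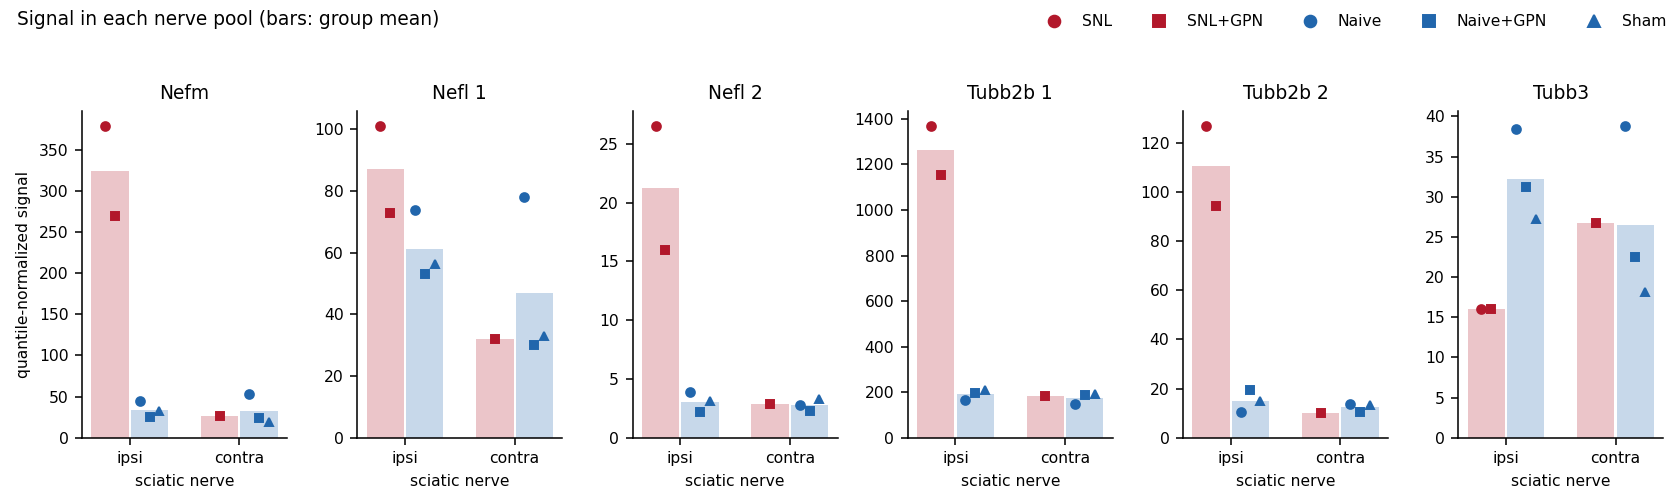
Quantile-normalized signal (linear axes from 0, scaled per panel) of 6 member probe sets in the ipsilateral and contralateral sciatic nerve. Bars are group means, red for ligated and blue for unligated pools, and points are pools; the contralateral side has 1 ligated pool. Nefm, Nefl 2, Tubb2b 1 and Tubb2b 2 are high in both ipsilateral ligated pools, while Tubb3 is lower there.

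The changes of ganglion and nerve were tested as a difference. The L5 change was lower than the nerve change in 7 of 15 member probe sets (1.34% of all), and the L6 change in 5 of 15 (1.01% of all). The members were taken as a set that falls in ganglia against nerve, so these counts repeat that choice. They describe the set and are no independent support for it. For Nefm the difference was -3.88 in L5 (SE 0.30, adjusted p = 0.00294) and -4.55 in L6 (SE 0.33, adjusted p = 0.00258). For Tubb2b 1, which rose in ganglia and more in nerve, it was -2.01 in L5 (SE 0.22, adjusted p = 0.0044) and -2.06 in L6 (SE 0.26, adjusted p = 0.011). Tubb3 differed by 0.70 (adjusted p = 0.139) and 0.93 (adjusted p = 0.119) and did not pass. Nefh 1 ran the other way in L5 and did not pass (0.53, adjusted p = 0.3), unlike Nefh 2, and both had low signals in nerve. The L5 and L6 differences share the nerve pools. Without SNL 2 of 15 passed for L5 and 1 for L6, and for L6 2 passed without SNL+GPN and 3 without Naive.

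**Figure D4:**
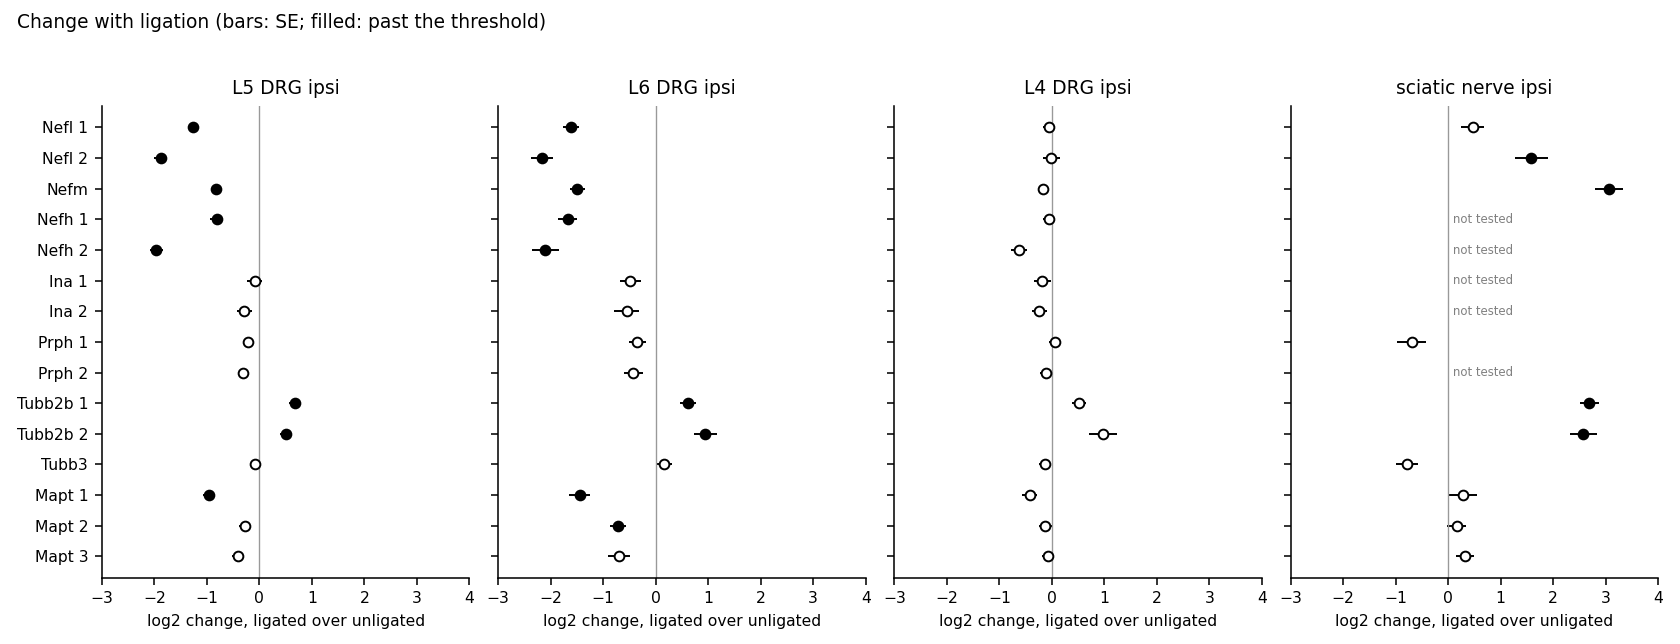
Log2 change of ligated over unligated pools with its SE for 15 member probe sets in 3 ipsilateral ganglia and the ipsilateral nerve. Filled points passed the threshold; probe sets under the signal filter in nerve are marked as not tested. Neurofilament points lie left of 0 in L5 and L6, near 0 in L4 apart from Nefh 2, and Nefm and Nefl 2 lie right of 0 in nerve (Tubb2b 2 in L5 turns to -0.24 at the deposited scaling).

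In spinal cord and brain no member passed. The counts were 0 of 15 in spinal cord ipsi, 0 of 15 in spinal cord contra and 0 of 14 in brain, with 0% of all probe sets past the threshold in each, and 4, 2 and 0 members with an unadjusted p below 0.05 (2.71%, 5.03% and 2.59% of all probe sets). In spinal cord ipsi Prph 1 had 331 and 375 in SNL and SNL+GPN, against 258, 298 and 283 in Naive, Naive+GPN and Sham (0.33, SE 0.13, adjusted p = 1). Nefm had 2159 and 2090 there, against 2412, 2657 and 2575 (-0.26, SE 0.09, adjusted p = 1). In both cases the groups did not overlap and the threshold was missed. In brain Nefl 1 had 756 and 752 in SNL and SNL+GPN, against 564, 762 and 665 in Naive, Naive+GPN and Sham, and the groups overlapped.

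Gabapentin, tested over both ligation states with ligation as a covariate, gave 0 members past the threshold in L5, L6, nerve and spinal cord on the ligated side, with 0% of all probe sets called in each. At an unadjusted p below 0.05 the members counted 0, 0, 0 and 1, and all probe sets 3.77%, 3.27%, 2.76% and 3.12%. In L5 the change with the drug was 0.05 for Nefl 1 (SE 0.11) and -0.16 for Tubb2b 1 (SE 0.12), and in nerve it was -0.50 for Nefm (SE 0.22). The 1 member with a low unadjusted p was Tubb2b 2 in spinal cord (0.48, SE 0.17, adjusted p = 1).

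Other genes of the neuronal cytoskeleton were counted by the brightest probe set of each gene, for which 6.79% of all genes were higher and 9.48% lower in L5, 4.76% and 4.61% in L6, and 2.03% and 2.86% in nerve. Of 21 genes of axonal transport motors tested in L5, 8 fell and 0 rose. They included Klc1 (-0.91, adjusted p = 0.00387) and Klc2 (-0.80), light chains of kinesin, Kif5a (-0.71), a neuronal kinesin heavy chain, and Dynll2 (-0.95), a dynein light chain. In L6 4 of 20 motors fell and 1, Dynlt1, rose (0.95, adjusted p = 0.0111). The median change of the motor list was -0.39 in L5 and -0.55 in L6, against -0.01 and 0.01 for all genes.

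Microtubule-associated proteins and stathmins gave 3 falls and 1 rise among 20 genes in L5, and 4 and 1 in L6. Map7 fell by 1.05 in L5 (adjusted p = 0.00319) and by 1.30 in L6, and Map1a, a protein of mature axons and dendrites, by 0.77 and 0.96. The rise was that of Stmn4, a neuronal stathmin, which binds tubulin dimers (1.15 in L5, adjusted p = 0.0103, and 0.92 in L6). Among 9 other tubulins in L5, Tuba1a rose (0.75, adjusted p = 0.0467; 0.01 at the deposited scaling) and Tubb4a (-0.49) and Tubg1 (-0.72) fell, and none of 8 passed in L6.

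Of 13 kinases and phosphatases of neurofilaments and tau, 3 fell in L5 and 1 in L6. Cdk5, a kinase of neurofilament side arms and tau, fell by 1.00 in L5 (adjusted p = 0.0045) and Ppp3ca, a calcineurin catalytic subunit, by 0.72 in L6. Linkers of the membrane skeleton gave 3 falls and 1 rise of 8 in L5 and 2 falls in L6, with Ank1 at -0.95 and -1.67. Of 9 other intermediate filament genes 2 rose and 0 fell in each ganglion. Vim, the vimentin gene of glia and connective tissue cells, rose by 0.84 in L5 (adjusted p = 0.00561) and by 1.01 in L6 (adjusted p = 0.019), and did not pass at median scaling (adjusted p = 0.0516 and 0.0512). The nuclear lamin gene Lmnb1 rose in L5 (1.05, adjusted p = 0.0195) and the keratin gene Krt19 in L6 (1.39, adjusted p = 0.0165). At the deposited scaling none of the L6 calls of these other lists passed, and their signs held. At median scaling the L6 calls of Map1a, Klc1, Ppp3ca and the linker Epb41l3 did not pass either (adjusted p from 0.0926 to 0.256).

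In nerve these lists had few calls. Crmp1 rose by 1.87 (adjusted p = 0.0415) and Map2 by 1.42 (adjusted p = 0.0153), both microtubule-associated proteins of neurons, as did the linkers Sptbn1 (1.36) and Add1 (1.26). Falls were those of Tubb4a (-1.48), Stmn3 (-0.95), Kif5c (-1.14), Ppp2r2b (-1.11) and the keratin Krt5 (-2.42). At the deposited scaling Tubb4a, Stmn3, Kif5c, Ppp2r2b and Add1 kept their signs and did not pass (adjusted p from 0.142 to 0.573). Add1 did not pass at median scaling either (adjusted p = 0.0829). With muscle markers as a covariate 2 probe sets in all passed in nerve. Without the SNL pool none of these passed, since 0 probe sets did.

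**Figure D5:**
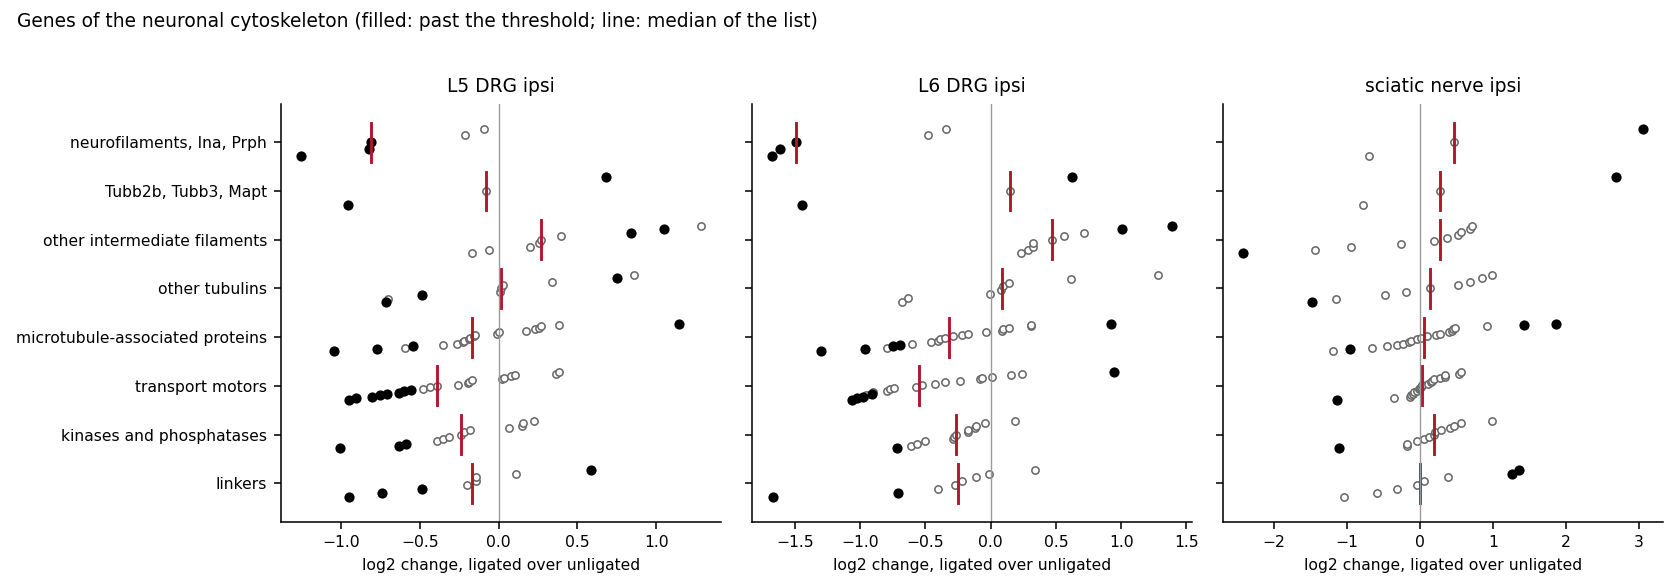
Log2 change of ligated over unligated pools for each gene of 8 cytoskeletal lists (1 point per gene, its brightest probe set) in L5 DRG, L6 DRG and sciatic nerve of the ligated side. Filled points passed the threshold and red lines are list medians. The neurofilament list has the lowest median in both ganglia (-0.81 and -1.49), and the motor list lies at -0.39 and -0.55. The neurofilament genes are members chosen as falling in ganglia against nerve, so that rank partly repeats the choice.

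Over all 52 pools, with values scaled to the median of their array, the profiles of the members divided by tissue. Nefl 1 correlated with Nefm at 0.977 and with Nefh 1 at 0.984 (Pearson r of log2 values), with Tubb3 at 0.934, with Mapt 1 at 0.886 and with Ina 1 at 0.736, while Prph 1 correlated with Ina 1 at 0.37. Probe sets of the same gene correlated at 0.946 to 0.99, except for Tubb2b 3, which did not follow the others (0.211 and 0.311). The genes most like Nefl outside the members were Fbxo2 (0.984), Uchl1 (0.966) and Thy1 (0.963). Nefm was most like Pls1 (0.955), Fbxo2 and Uchl1, Nefh most like Fbxo2 (0.984), Ccdc92 and Pls1, and Prph most like Calca (0.976), Lxn (0.975) and Ret (0.969). Uchl1, Thy1, Calca and Ret are also on the neuron marker lists used here. Pools of a tissue share its large differences from other tissues, so these values are descriptions.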

How the data were processed

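RNA of 52 pools was hybridised to rat U34 A, B and C arrays, 156 in all. The deposited values are linear signal intensity per probe set, made with MAS5 per the submitters' processing notes; no source used here gives its version or scaling target. Names came from the platform annotation, updated through Entrez identifiers: 18178 probe sets had 1 symbol, 391 several and 7633 none, with 177 controls left out. Intensities were quantile-normalized per array type within a compartment and tested as log2 values of the signal plus a pseudocount (the 20th percentile: 5.8 on A, 4.5 on B, 6.2 on C). Probe sets above the 40th percentile of their array in at least 2 samples were fitted with limma 3.58.1 (lmFit, eBayes with a trend) in R 4.3.3, with Benjamini-Hochberg adjustment over all of them. The fit was tested on simulated data. A gene stands for its brightest probe set in lists. All member probe sets are reported, and other genes are named from the lists where they passed with the larger changes. The members and lists were chosen with earlier results of these data known, the members as a set falling in ganglia against nerve. Their shares in those comparisons, and in the L5, L6 and nerve changes that enter them, are therefore descriptions. Alternatives were the deposited and median scaling, pseudocounts of 1 and 16, no filter, 1 spread over compartments, gabapentin or muscle markers as a covariate, and leaving out each treatment.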

Additional observations from a re-analysis of the deposited data

Results flagged for a closer look

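Ligation changes that differed between compartments by a test of the difference are given here as log2 differences, negative where the change was lower in the ipsilateral ganglion. Of L5 DRG minus sciatic nerve, the differences were -1.72 for Nefl 1, -3.46 for Nefl 2, -3.88 for Nefm, -2.45 for Nefh 2, -2.01 for Tubb2b 1, -2.07 for Tubb2b 2 and -1.24 for Mapt 1. Of L6 DRG minus sciatic nerve, they were -2.08 for Nefl 1, -3.74 for Nefl 2, -4.55 for Nefm, -2.59 for Nefh 2 and -2.06 for Tubb2b 1. The Mapt 1 difference of L5 minus nerve stayed past the threshold in 4 of 10 alternatives. Nefh 2 did not pass the signal filter in nerve alone, so its difference sets a ganglion change against signals near the pseudocount. The brighter Nefh 1 went the other way for L5 minus nerve and did not pass (0.53, adjusted p = 0.3). With a pseudocount of 1 it passed (1.82, adjusted p = 0.0148). Its mean nerve signals were also low, at 1.005 in ligated and 11.48 in unligated pools, so the Nefh probe sets disagreed.

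Between ganglia, L5 minus L4 of the ligated side gave -1.21 for Nefl 1, -1.87 for Nefl 2, -0.66 for Nefm, -0.75 for Nefh 1 and -1.33 for Nefh 2. Between sides, L5 ipsi minus contra gave -0.97 for Nefl 1, -1.69 for Nefl 2 and -1.8 for Nefh 2. L6 ipsi minus contra gave -2.02 for Nefl 1, -3.11 for Nefl 2, -1.44 for Nefm, -1.5 for Nefh 1, -2.74 for Nefh 2 and -1.15 for Mapt 1. Nefm and Nefh 1 of L5 minus L4 each stayed past the threshold in 2 of 10 alternatives. Mapt 1 of L6 ipsi minus contra stayed past it in 3 of 9. Tissues of a treatment may come from the same rats, and the labels do not state whether pools share rats.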

How the results depend on the processing

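Of 83 member results past the threshold, 82 kept their sign under every alternative run, the exception being Tubb2b 2 in L5 DRG ipsi (-0.24 at the deposited scaling), and 44 stayed past the threshold in all. At the deposited scaling the member counts were 2 in L6 DRG ipsi (main 9), 1 in L4 DRG ipsi (main 0), 3 in L6 DRG contra (main 0), 2 in L6 minus nerve (main 5), 5 in L5 ipsi minus contra (main 3) and 0 in L6 ipsi minus contra (main 6). At median scaling they were 1 in L4 DRG ipsi, 3 in L5 minus L4 (main 5), 0 in L5 ipsi minus contra and 3 in L6 ipsi minus contra; with no filter they were 3, 0 and 3 in those last 3. With muscle markers as a covariate 0 passed in nerve (main 4). Leaving out 1 treatment in turn gave 5 to 7 in L6 DRG ipsi, 0 to 4 in nerve, 0 to 1 in L6 DRG contra, 2 to 7 in L5 minus nerve, 1 to 6 in L6 minus nerve, 1 to 4 in L5 minus L4 and 0 to 2 in L5 ipsi minus contra. The causes were not tested. Over all probe sets, leaving out SNL took the counts to 766 in L5 (main 2617), 263 in L6 (main 1451) and 0 in nerve (main 824), and 1 spread over compartments gave 2798 in L6 and 2348 in nerve; L4 gave 2926 at the deposited scaling (main 7). No paired analysis was possible because each treatment had 1 pool per compartment and the labels give no replicate numbers; only the differences of ligation change between compartments were taken within a treatment. With 2 ligated pools a comparison, leaving out either leaves 1, which is assumed to vary like the others.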
